A study of Mus musculus with 6 samples.

Results

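Of the 6 bowel arrays of this mouse series, 2 carried a small intestine profile and 4 a colon profile, although the labels give colon as the tissue of all 6. The arrays were chosen by 1 measured value, the level of Apoa1: those on which the brightest probe set of Apoa1 (apolipoprotein A-I) was above log2 12 form the ileum-like side, and the others form the colon-like side. The ileum-like side holds control replicate 1 and deficient replicate 3, hereafter control 1 and deficient 3. The colon-like side holds control 2, control 3, deficient 1 and deficient 2. All mice were C57BL/6, 6 to 8 weeks old, carried PPAR g fl/fl (loxP sites in the gene of PPAR gamma), drank 2.5% dextran sodium sulfate (DSS), which injures the colonic epithelium, and were killed on day 7. The 3 control mice were Lysozyme M cre- and the 3 deficient mice Lysozyme M cre+, so that Cre, where present, was driven by a promoter active mainly in macrophages and neutrophils. Each side thus holds both genotypes, 1 array of each among the ileum-like and 2 of each among the colon-like arrays. RNA came from whole tissue of 1 mouse per array, and no untreated mice are in the series.

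The small intestine and the colon are lined by the same stem-cell-fed epithelium but do different work. The small intestine digests and absorbs fat, sugar, peptides and bile acids through brush border enzymes and transporters, and Paneth cells at the base of its crypts secrete antimicrobial peptides. The colon takes up water and salt and holds a thick mucus layer, and the position along the gut is encoded in part by Hox transcription factors, whose more posterior members are active further down. Within the small intestine the duodenum and jejunum absorb iron and most sugar and fat, and the ileum recovers bile acids and vitamin B12.

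Levels are log2 values, on which 1 unit is a 2-fold step, and since probe sets differ in affinity, levels are compared between arrays and not between genes. Values are listed for the ileum-like side in the order control 1, deficient 3, and for the colon-like side in the order control 2, control 3, deficient 1, deficient 2. A difference is the ileum-like mean minus the colon-like mean, with the standard error (SE) of a linear model that holds genotype as a covariate, over 2 and 4 arrays. A difference given without an array is the side term of the same model fitted to the remaining arrays. Without control 1 it compares the sides within the deficient arrays alone, and without deficient 3 within the control arrays alone. Because the values of these same arrays chose the sides, every difference is a description and carries no test. A gene is said to be higher (or lower) where both ileum-like arrays lay above (or below) all 4 others, the difference was at least 1, and the mean of the brighter side was above log2 4. By this rule 578 of 18194 genes were higher (3.18%) and 859 were lower (4.72%), 7.9% in either direction. The list counts below are to be read beside these shares. Where an array is left out, the rule has fewer values to separate, which can raise a count by itself.

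Apoa1, the main protein of high-density lipoprotein, which the small intestine and liver make, read 15.46 and 15.23 against 3.85, 3.82, 7.38 and 4.72. Its lowest ileum-like value was thus 15.23 and its highest colon-like value 7.38, with no array between. Fabp6, the ileal bile acid binding protein, read 15.32 and 14.49 against 7.81, 7.70, 7.46 and 5.72, a difference of 7.73 ± 0.58. Fabp6 above log2 12 picked the same 2 arrays, as did Apoa1 above 10 or above 14. Car1, a carbonic anhydrase of the colonic surface epithelium, read 2.83 and 7.02 against 15.32, 15.19, 14.38 and 13.60, and Hoxa10, a posterior Hox gene, read 2.87 and 3.89 against 7.23, 7.07, 8.92 and 8.88. The colon markers were therefore low on the ileum-like arrays, with differences of -9.70 ± 1.48 and -4.64 ± 0.20, but the 2 arrays were not equal: Car1 was near the lowest value of the array on control 1 and well above it on deficient 3. A second probe set of Hoxa10 lay near the lowest value on all arrays and differed by -0.24.

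**Figure D1:**
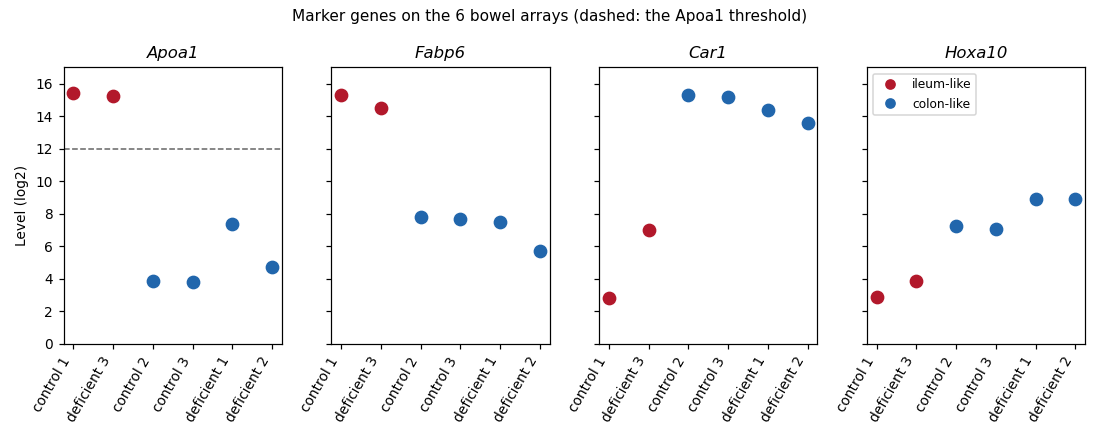
Levels (log2, vertical axis) of the 4 marker genes on each of the 6 arrays; red points are the ileum-like arrays, blue points the colon-like arrays, and the dashed line is the Apoa1 threshold of 12. Apoa1 and Fabp6 are above 14 on both ileum-like arrays and below 8 on the other 4, and Car1 and Hoxa10 run the other way.

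Most general epithelial genes were neither higher nor lower. Epcam, an adhesion protein of all gut epithelium, read 14.68 and 14.42 against 14.37, 14.33, 14.41 and 14.39, and the keratin gene Krt8 and the lectin gene Lgals4 differed by 0.14 ± 0.08 and 0.09 ± 0.13. Of 14 general epithelial genes, 2 of 14 were higher, namely Vil1, the actin bundler of microvilli (1.80 ± 0.33), and Krt20 (1.13 ± 0.27), and 0 were lower. Without control 1 the difference of Krt20 was 0.79 and it was not counted as higher. Of 21 cell cycle genes 0 were higher and 0 lower, with a median difference of 0.45. Xist, the transcript that silences an X chromosome in females, was at 12.11 on control 2 and 2.25 on each of the other arrays.

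Differences were larger in the upward direction. At 3 log2 units or more, 135 genes were higher and 75 lower, at 5 or more 45 and 13, and at 8 or more 12 and 1, the last being Car1. The median was 1.87 over the higher and -1.46 over the lower genes. On the dimmer side 113 of the higher genes (19.6%) and 140 of the lower (16.3%) averaged below log2 4, where the background model compresses differences. Leaving out control 1 or deficient 3 leaves 1 ileum-like array, so that the rule has fewer values to separate. Counts without either array are therefore not comparable with the counts over both.

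**Figure D2:**
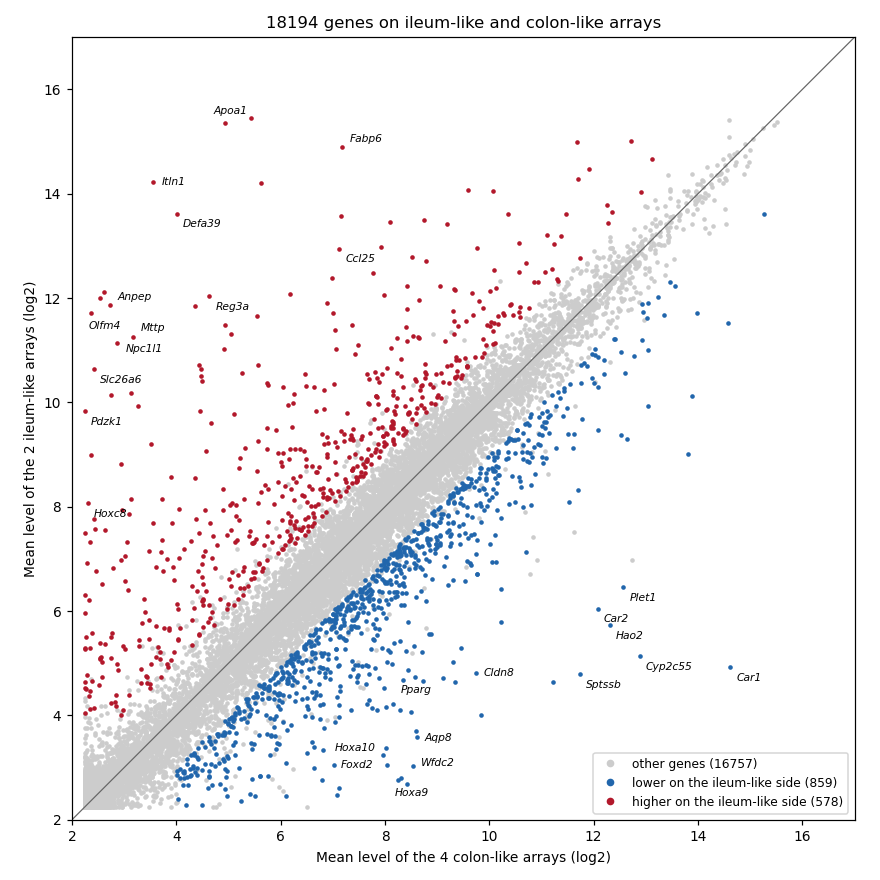
Mean level of the 2 ileum-like arrays (vertical axis, log2) against that of the 4 colon-like arrays (horizontal axis, log2), 1 point per gene; red points are the 578 higher genes, blue points the 859 lower genes, and the line marks equal means. Itln1, Apoa1 and Defa31 (not labelled) lie furthest above the line and Car1 furthest below it.

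Genes of fat absorption were higher nearly throughout. Of 22 genes of apolipoproteins and chylomicron assembly, 18 of 22 were higher and 1 of 22 was lower, with a median difference of 3.94 against -0.0005 over all 18194 genes. Apoa1, whose level chose the sides, is on this list, and without it 17 of 21 were higher, with a median of 3.81. Mttp, which loads lipid onto apolipoprotein B, read 11.43 and 11.08 against 2.91, 3.07, 3.94 and 2.77, and Apob itself 13.66 and 13.35 against 8.80, 9.43, 9.11 and 7.63. Both proteins are needed to build a chylomicron, and both ileum-like values of each lay above every colon-like value. Npc1l1, the apical cholesterol importer, read 11.37 and 10.92 against 2.68, 2.89, 2.65 and 3.23, and Abcg5, a part of the transporter that returns sterols to the lumen, 10.39 and 9.98 against 2.97, 3.01, 4.16 and 2.37. Mogat2, which rebuilds triglyceride from absorbed monoglyceride, differed by 6.26 ± 0.30, and Tm6sf2 and Pla2g12b, both needed for lipoprotein secretion, by 6.54 ± 0.77 and 6.12 ± 0.75. Creb3l3, a transcription factor that drives apolipoprotein genes, read 9.88 and 8.38 against 5.69, 5.23, 5.20 and 5.17. Some members were unequal on the ileum-like arrays: Apoa4 read 11.81 and 9.20 against 3.94, 3.77, 6.73 and 3.42 and Apoc3 11.28 and 8.60 against 3.08, 3.60, 3.97 and 2.41, each more than 2 units higher on control 1. Scarb1, a receptor for high-density lipoprotein, was the lower member (-1.19 ± 0.30), but was -1.0 without deficient 2 and -0.83 without deficient 3 and then not counted. Its other probe sets, which were less bright, differed by -2.01 and -2.35 and were lower. Cd36, a fatty acid carrier, read 8.24 and 7.98 against 9.60, 8.37, 7.76 and 7.37 and was neither, as was Fabp1, a fatty acid binding protein, which read 7.54 and 4.39 against 4.96, 6.19, 4.97 and 3.44.

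Some higher genes of absorption hold letters bound by HNF4, a nuclear receptor of absorptive cells, in their promoters. The stretches shown are from genes that were higher together: Apoa4, Fabp2 and Npc1l1 of fat absorption, Rbp2 of retinol handling, Treh of the brush border and Slc3a1 of amino acid uptake. Promoters are the 250 bases before the gene start in RefSeq (GRCm38.p6), each printed as 120 bases on the gene's own strand, and capitals mark the match to CAAAGTNCA or its reverse complement, or for Npc1l1 the match to GTTAATNAT, letters bound by HNF1.
Apoa4: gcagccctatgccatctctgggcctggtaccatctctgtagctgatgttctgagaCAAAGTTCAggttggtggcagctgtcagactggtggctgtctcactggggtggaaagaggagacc
Fabp2: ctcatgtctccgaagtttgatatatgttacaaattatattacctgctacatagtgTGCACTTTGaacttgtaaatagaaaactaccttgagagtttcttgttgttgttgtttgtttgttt
Rbp2: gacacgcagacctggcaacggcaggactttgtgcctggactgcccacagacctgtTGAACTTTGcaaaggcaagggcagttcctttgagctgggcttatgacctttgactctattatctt
Treh: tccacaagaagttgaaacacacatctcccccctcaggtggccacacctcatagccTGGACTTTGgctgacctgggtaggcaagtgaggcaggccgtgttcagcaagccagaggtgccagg
Slc3a1: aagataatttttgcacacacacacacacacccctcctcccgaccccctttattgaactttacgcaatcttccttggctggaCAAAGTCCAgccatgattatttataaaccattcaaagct
Npc1l1: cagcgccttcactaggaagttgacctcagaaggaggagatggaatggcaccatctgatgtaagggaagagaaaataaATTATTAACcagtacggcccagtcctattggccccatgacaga
These lie at chr9:46240607-46240726 (plus strand) for Apoa4, chr3:122894880-122894999 (plus) for Fabp2, chr9:98490381-98490500 (plus) for Rbp2, chr9:44673107-44673226 (plus) for Treh, chr17:85028227-85028346 (plus) for Slc3a1 and chr11:6230246-6230365 (minus) for Npc1l1. The match runs from 182 to 174 bases before the start in Apoa4 and from 39 to 31 in Slc3a1. Searched on both strands, with overlaps between motifs kept, the HNF4 letters were in 21 of 453 higher genes that have a promoter sequence (4.64%), in 6 of 643 lower genes (0.933%) and in 198 of all 14453 genes (1.37%). The HNF1 letters were in 1.99%, 0.622% and 0.685%. For the GATA letters AGATAA the shares were 12.4%, 7.78% and 8.79%, and for the CDX letters TTTATNG 12.1%, 10.7% and 8.9%. The letters AGGTCANTGACCT, bound by the bile acid receptor, were in 0 of all 14453 genes, so they cannot set the higher genes apart from the others. Median GC content was 56.8% in the higher, 59.2% in the lower and 57.6% in all promoters. A match is a string of letters and not a measured binding site.

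Of the genes with the largest upward differences, Bcl2l15, of the BCL2 family, and Lgals2, a galectin, belong to none of the lists. Bcl2l15 read 11.69 and 12.55 against 2.36, 2.36, 2.87 and 2.85 and Lgals2 14.07 and 14.35 against 6.81, 6.78, 4.73 and 4.16. Both separated the sides by more than 7 units between the nearest arrays.

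The ileal programme of bile acid and vitamin B12 recovery was present on both ileum-like arrays. Of 11 genes, 8 of 11 were higher and 1 of 11 was lower, with a median of 3.97. Slc10a2, the apical bile acid importer, read 11.61 and 10.45 against 7.53, 8.69, 7.82 and 4.21, and Slc51b, a part of the basolateral exporter, 12.38 and 12.10 against 8.58, 8.86, 9.09 and 7.19. Fgf15, the hormone that ileal cells release when bile acids enter, read 7.77 and 7.23 on the ileum-like arrays and 2.25 to 2.26 on the colon-like arrays, where it was at the lowest value. Cubn and Amn, which together take up the B12 carrier complex, read 11.85 and 9.41 against 5.72, 6.90, 2.71 and 2.53 and 10.98 and 9.69 against 6.69, 7.53, 5.72 and 3.10. Slc51a, the partner of Slc51b, read 13.13 and 12.45 against 10.91, 10.56, 9.03 and 3.54. Slc51a was well measured on 3 colon-like arrays and far lower on deficient 2, so its difference of 4.28 ± 2.07 became 2.83 without deficient 2 and 2.39 without deficient 3. Nr1h4, the bile acid receptor itself, was expressed on all arrays at 10.39 and 10.57 against 10.49, 10.19, 9.75 and 8.38 and was neither. Abcc3, a basolateral exporter of conjugates, was the lower member (-2.23 ± 0.19).

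Brush border digestion followed the same division. Of 17 listed enzymes with a probe set, 13 of 17 were higher and 0 lower, with a median of 3.04. The peptidase Anpep (aminopeptidase N) read 12.17 and 11.57 against 2.51, 2.90, 2.96 and 2.56, and Dpp4 12.49 and 12.47 against 7.98, 8.10, 7.75 and 7.26. Enpep, another aminopeptidase, read 14.13 and 14.02 against 9.79, 9.70, 9.62 and 9.28, a difference of 4.48 ± 0.12 for an enzyme well measured on both sides. Treh, which splits trehalose, read 8.84 and 5.82 against 2.36, 2.36, 2.31 and 2.31, and Mgam, which splits starch fragments, 12.74 and 12.32 against 9.75, 9.69, 10.51 and 10.38. Naaladl1, a peptidase, was 6.41 ± 1.13 higher over a wide colon-like range of 3.92 to 9.34. Lct (lactase) read 5.71 and 2.30 against 2.30, 2.29, 3.31 and 2.29 and Tmprss15 (enteropeptidase, the duodenal activator of trypsinogen) was at 2.25 and 2.25 on the ileum-like arrays and 2.25 to 2.25 on the others.

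Transporters of nutrients were higher in 14 of 18 genes and lower in 0, with a median of 3.40. Slc6a19, the main carrier of neutral amino acids, read 11.18 and 9.10 against 2.85, 2.92, 2.92 and 2.29, and Slc15a1, the peptide carrier, 11.05 and 10.07 against 4.40, 4.10, 5.35 and 7.18. The subunits of the cystine carrier, Slc7a9 and Slc3a1, differed by 5.37 ± 0.51 and 3.62 ± 0.29. Slc5a1, the sodium-coupled glucose carrier, was also measured in colon-like tissue and read 12.53 and 11.94 against 9.53, 9.22, 9.32 and 8.14. Slc34a2, the phosphate carrier, read 12.28 and 11.03 against 7.53, 7.40, 3.54 and 3.69. Slc26a6, an apical exchanger of chloride, bicarbonate and oxalate, read 10.62 and 10.66 against 2.54, 2.53, 2.25 and 2.34, a difference of 8.23 ± 0.08 with little spread on either side. Pdzk1, a scaffold that holds such carriers at the membrane, differed by 7.59 ± 0.54. The chloride exchanger of the colon, Slc26a3, read 11.05 and 10.32 against 10.78, 10.34, 11.58 and 11.54 and the sides overlapped.

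Vitamin A handling was divided. Of 13 retinoid genes 5 of 13 were higher and 2 of 13 lower, with a median of 0.77. Lrat, which esterifies retinol for export, read 7.01 and 6.03 against 5.97, 4.62, 3.71 and 3.74. Adh1, an alcohol dehydrogenase that oxidises retinol, was lower and read 9.0 and 9.23 against 11.59, 12.07, 11.52 and 11.20.

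Some genes of the upper small intestine were higher on the ileum-like arrays and others were not measured. Of 17 proximal genes, 5 of 17 were higher and 0 lower, with a median of 0.61, where 3.18% of all genes were higher. Of the 17, 12 were above log2 4 on at least 1 array, and the rest cannot show a difference. With the filter at log2 4 on 2 arrays, 4 of 9 were higher. Gata4, the transcription factor that sets jejunal identity, read 2.43 and 2.40 against 2.40, 2.39, 2.40 and 2.39, and Pdx1, of the duodenum, read 2.25 and 2.26 against 2.26, 2.25, 2.25 and 2.25. Both are at or near the lowest value on all 6 arrays. Slc40a1, the iron exporter, read 7.11 and 11 against 11.27, 11.01, 10.76 and 10.25 and Cybrd1, the duodenal iron reductase, 5.71 and 5.37 against 5.37, 5.57, 5.19 and 5.49, and neither was higher or lower. Rbp2, the cellular retinol binding protein of absorptive cells, read 9.43 and 8.20 against 3.87, 2.62, 2.60 and 2.66, and Heph, a ferroxidase, differed by 1.43 ± 0.27. The ileal genes Fabp6, Slc10a2, Fgf15, Cubn and Amn were above every colon-like value on both arrays, as were Rbp2 and Heph.

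Paneth cell genes were higher in most members. Of 13 with a probe set, 8 of 13 were higher and 1 of 13 was lower, with a median of 3.32. Itln1, a lectin that binds microbial sugars, had the largest difference of all genes and read 14.26 and 14.18 against 3.19, 4.62, 3.39 and 2.98. Defa31 and Defa39, alpha-defensins, read 16.16 and 14.73 against 6.66, 4.23, 5.74 and 5.06 and 13.64 and 13.60 against 4.18, 3.97, 3.60 and 4.27. Alpha-defensins are a family of near-identical copies, so these probe sets cannot be assigned to single members. Neither Defa31 nor Defa39 is on the list. Defa3, the listed alpha-defensin with a probe set, differed by 0.25 and was neither higher nor lower. Mmp7, the protease that activates defensins in mice, read 11.92 and 12.26 against 6.91, 7.0, 5.77 and 5.0, and Ang4, an antimicrobial ribonuclease, 13.13 and 12.84 against 8.88, 9.22, 6.97 and 6.65. Lyz1, the Paneth cell lysozyme, read 15.41 and 14.58 against 12.66, 13.63, 10.58 and 9.84. Its probe set may also bind transcripts of the near-identical myeloid gene Lyz2, and a Lyz1 probe set with no cross-hybridisation suffix differed by 0.99. The lower member was Nupr1, a stress-induced chromatin protein (-3.11 ± 0.27). Guca2b, uroguanylin, which is on the same list, read 13.15 and 12.28 against 9.62, 10.13, 8.14 and 7.24, whereas its paralogue Guca2a (guanylin) read 13.68 and 13.34 against 14.57, 14.50, 14.02 and 13.39.

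Of the REG lectins, which damaged epithelium secretes against bacteria, 4 of 7 were higher and 0 lower. Reg3a read 10.35 and 13.73 against 5.41, 5.38, 4.20 and 3.55, with the higher value on deficient 3. Reg3b was near the top of the scale on 5 arrays and read 15.20 and 15.63 against 15.21, 15.08, 15.33 and 12.76. Reg3g read 14.57 and 15.45 against 12.54, 13.24, 14.49 and 10.57; without deficient 2, where it was lowest, its difference of 2.30 ± 1.35 was 1.37. Olfm4, a secreted glycoprotein of crypt base cells, read 11.88 and 11.56 against 2.30, 2.45, 2.30 and 2.45, a difference of 9.35 ± 0.11. It was thus near the lowest value on every colon-like array. The other stem cell and Wnt target genes did not share this step: of 17, 2 of 17 were higher (Olfm4 and Axin2, 2.32 ± 0.29) and 1 of 17 was lower (Cd44, -1.38 ± 0.25), with a median of -0.04.

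Ccl25, the chemokine that draws gut lymphocytes into the small intestine, read 12.91 and 12.99 against 7.71, 7.57, 8.38 and 4.84, a difference of 5.82 ± 1.20. Its receptor Ccr9 read 7.43 and 5.02 against 3.47, 2.75, 3.66 and 3.65. A probe set of Ccr9 without a cross-hybridisation suffix lay near the lowest value on both sides and differed by 0.0837. Another, which ends in _a_at, had means of 4.13 and 2.51 and was higher by 1.63. The remaining ones differed by 0.19 and -0.10. The granzyme genes Gzma and Gzmb, of cytotoxic lymphocytes, read 11.18 and 9.13 against 6.28, 6.23, 7.62 and 4.90 and 9.42 and 7.53 against 5.41, 5.82, 6.72 and 5.82. For these 3 lymphocyte genes control 1 was about 2 units above deficient 3. The difference of Ccr9 was 4.32 without deficient 3 and 1.37 without control 1, and that of Gzmb 3.81 and 1.26. Of 16 T cell genes 5 of 16 were higher and 0 lower, with a median of 0.97, and 10 were higher without deficient 3. The B cell markers Cd79a and Cr2 were at or near the lowest value on all arrays, Cd79a at 2.37 and 2.33 against 2.33, 2.33, 2.33 and 2.27 and Cr2 at 2.25 and 2.25 against 2.25 to 2.25. Other members were measured, and 8 of the 17 B cell and Peyer patch genes were above log2 4 on at least 1 array. Cd79b, Pou2af1 and Ccl20 differed by 1.10, 1.27 and 1.76 and were neither higher nor lower, and the median of the list was -0.01. Of the 17 B cell and Peyer patch genes 0 of 17 were higher and 2 of 17 lower, the chemokine Cxcl13 (-2.28 ± 0.32) and Anxa5 (-1.06 ± 0.18), the latter expressed by many cell types. Anxa5 was -0.96 without deficient 2 and -0.85 without deficient 3, under the limit of 1 for a count. Igha, the IgA heavy chain of plasma cells, read 15.19 and 12.36 against 14.10, 13.99, 14.55 and 10.84 and was neither.

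The largest differences in favour of the colon-like side, after Car1, were those of genes with varied functions. Car2, the cytosolic carbonic anhydrase, read 5.58 and 6.52 against 11.76, 12.80, 11.94 and 11.82. Cyp2c55, a colonic cytochrome P450, read 6.77 and 3.50 against 14.27, 14.11, 13.11 and 10.05, and Sptssb, a subunit of the enzyme that starts sphingolipid synthesis, 3.78 and 5.80 against 11.50, 12.09, 12.36 and 11. Hao2, a hydroxyacid oxidase, differed by -6.58 ± 0.46 and Ccn3, a matricellular protein, by -6.57 ± 0.42. For each of these 5 genes every colon-like value was above 10 and every ileum-like value below 7. Aqp8, the aquaporin of colonic surface cells, read 3.35 and 3.84 against 7.03, 7.62, 9.26 and 10.55, and Cldn8, a tight junction claudin that limits sodium back-leak, 5.70 and 3.91 against 10.14, 9.89, 9.40 and 9.57. Cldn8 was the sole lower member of 19 claudins, of which 0 were higher, where 4.72% of all genes were lower. Wfdc2 and Wfdc18, secreted protease inhibitor family members, read 3.04 and 3.02 against 7.69, 8.98, 9.55 and 7.92 and 2.40 and 2.96 against 6.49, 7.97, 8.11 and 11.08, and Cd177, a surface protein best known from neutrophils, read 5.44 and 2.59 against 9.29, 10.03, 10.46 and 9.55. Wfdc18 was highest on deficient 2, and every colon-like value of the 3 genes was above both ileum-like values.

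The colonocyte list was mixed. Of 23 genes, 4 of 23 were higher and 5 of 23 lower, with a median of -0.38. The higher members were Mptx1, a pentraxin (10.10 and 9.55 against 2.62, 5.35, 2.62 and 7.22), Tmigd1 (14.53 and 14.03 against 13.31, 12.63, 11.71 and 9.12), Slc5a8, a carrier of short-chain fatty acids (10.10 and 10.49 against 8.87, 8.82, 9.34 and 8.64), and Krt20. Mptx1 and Tmigd1 thus varied by several units among the colon-like arrays as well, and Tmigd1 differed by 1.57 without deficient 3. Car4, a membrane carbonic anhydrase often used as a colon marker, read 11.02 and 13.37 against 11.89, 12.29, 12.64 and 13.16, with its highest value on an ileum-like array. The sodium channel subunit Scnn1b was low, at 2.97 and 2.97 on the ileum-like and 2.99 to 4.28 on the colon-like arrays, and Scnn1g was at or near the lowest value on every array (2.25 and 2.25 against 2.25, 2.25, 2.25 and 2.25). Car1, Aqp8, Cyp2c55 and Hoxa10 thus separated the sides, and Car4, Slc26a3 and the sodium channel did not.

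Goblet cell products were bright on both sides, and some goblet genes were lower on the ileum-like arrays. Muc2, the gel-forming mucin, was bright on all arrays and read 13.79 and 13.42 against 15.37, 15.49, 15.15 and 15.06, a difference of -1.66 ± 0.05. Muc4 and Muc1, membrane mucins, differed by -4.07 ± 0.20 and -3.05 ± 0.87. The Muc4 probe sets without a cross-hybridisation suffix had means below log2 4 on both sides and differed by -0.45 and -0.0065. Of 18 goblet genes 1 of 18 was higher and 5 of 18 lower, with a median of -0.92; without deficient 3 the lower count was 8. Spdef, the transcription factor of goblet cell maturation, read 6.90 and 7.18 against 9.77, 9.79, 9.23 and 7.87, and Ern2, a stress sensor of mucus-secreting cells, 7.38 and 7.11 against 9.78, 9.49, 9.0 and 8.67. The difference of Spdef was -1.37 without control 1. The secreted goblet products Tff3, Zg16 and Clca1 read 15.20 and 15 against 14.42, 14.62, 14.54 and 14.83, 15.51 and 15.22 against 15.40, 15.39, 15.46 and 15.84 and 13.93 and 13.06 against 13.45, 13.50, 13.45 and 14.16, and none of them was higher or lower.

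Detoxifying enzymes were among both the higher and the lower genes. Of 22 cytochrome P450 genes 7 of 22 were higher and 3 of 22 lower. The higher group included the steroid and drug oxidases Cyp3a25 (10.56 and 8.65 against 5.39, 6.88, 3.22 and 3.19) and Cyp3a11 (8.22 and 4.21 against 2.29, 2.25, 2.50 and 2.28) and the fatty acid hydroxylase Cyp4f14 (11.92 and 10.85 against 6.85, 5.92, 8.29 and 7.07). Cyp3a11 rested mainly on control 1, with a difference of 5.95 without deficient 3 and 1.82 without control 1. The lower group was Cyp2c55, Cyp2d10 (2.50 and 2.46 against 6.05, 7.33, 7.46 and 7.49) and Cyp2d9 (-2.16 ± 0.33), and Cyp2d34, which is not on the list, read 2.71 and 2.80 against 8.0, 8.38, 8.53 and 8.10. Cyp2d genes are close copies of each other and their probe sets may share transcripts. Among conjugating enzymes the sulfotransferase Sult2b1 was higher (3.84 ± 0.30), and the carboxylesterase Ces1g and the glutathione transferase Gsta4 were lower (-4.44 ± 0.94 and -2.23 ± 0.19). Cps1, which makes carbamoyl phosphate from ammonia in liver and small intestine, read 11.93 and 11.77 against 5.01, 5.85, 4.19 and 2.34.

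Pparg, the gene that the study deleted in myeloid cells, read 5.28 and 4.15 against 9.91, 9.54, 8.77 and 8.23. Its difference between the sides was -4.44 within the control arrays and -4.35 within the deficient arrays, and all 4 colon-like arrays of both genotypes were above both ileum-like arrays. It was the sole lower member of 20 nuclear receptors, where 4.72% of all genes were lower. Nr1h3, the oxysterol receptor LXR alpha, was the sole higher member at 6.68 and 6.07 against 3.42, 4.47, 4.69 and 5.02, and its difference was 2.74 without deficient 3 and 1.21 without control 1. Whether the Pparg probe set lies in the deleted stretch is not given in the sources used here.

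A minority of Hox genes differed between the sides. Of 14 genes of paralogue groups 9 to 13, 2 of 14 were lower and 0 higher, namely Hoxa9 and Hoxa10. Hoxa9 read 2.80 and 2.81 against 5.52, 8.69, 9.76 and 9.24, with control 2 the lowest of the colon-like arrays. Hoxd10 read 2.27 and 2.32 against 6.59, 6.51, 3.91 and 2.29 and Hoxb13, of the most posterior gut, 2.25 and 2.25 against 2.26, 2.25, 3.76 and 7.30. Neither was counted as lower, because deficient 2 was near the lowest value for Hoxd10 and the control arrays were near it for Hoxb13. Without deficient 2 the lower count of the 14 genes was 5, and without control 3 or without deficient 3 it was 4. Hoxa13 and Hoxd13 were near the lowest value on all arrays.

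Among the 19 Hox genes of groups 1 to 8, 3 of 19 were higher and 1 of 19 was lower, and 5 were lower without deficient 2. Hoxc8 read 8.01 and 8.13 against 2.32, 2.29, 2.29 and 2.33, a difference of 5.76 ± 0.03. It was thus well measured on both ileum-like arrays and at or near the lowest value on all colon-like arrays. Hoxc4 differed by 1.53 ± 0.34. Hoxc6, next to Hoxc8 in the cluster, read 3.97 and 4.22 against 3.46, 3.29, 3.29 and 2.41 and was not counted. Hoxc5, which lies between Hoxc6 and Hoxc4, differed by 0.0 and was neither higher nor lower. Hoxa5 is uncertain: its brightest probe set differed by 1.32 ± 0.04 and another by -2.88. Hoxb3, Hoxb5 and Hoxb6 read 6.09 and 7.08 against 8.48, 8.57, 7.51 and 6.49, 4.60 and 5.62 against 7.24, 7.65, 6.12 and 5.25 and 5.73 and 7.18 against 8.38, 8.68, 7.22 and 3.79. For these 3 HoxB genes control 2 and control 3 were the highest, deficient 1 lay above both ileum-like arrays by a smaller margin, and deficient 2 lay below at least 1 of them.

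**Figure D3:**
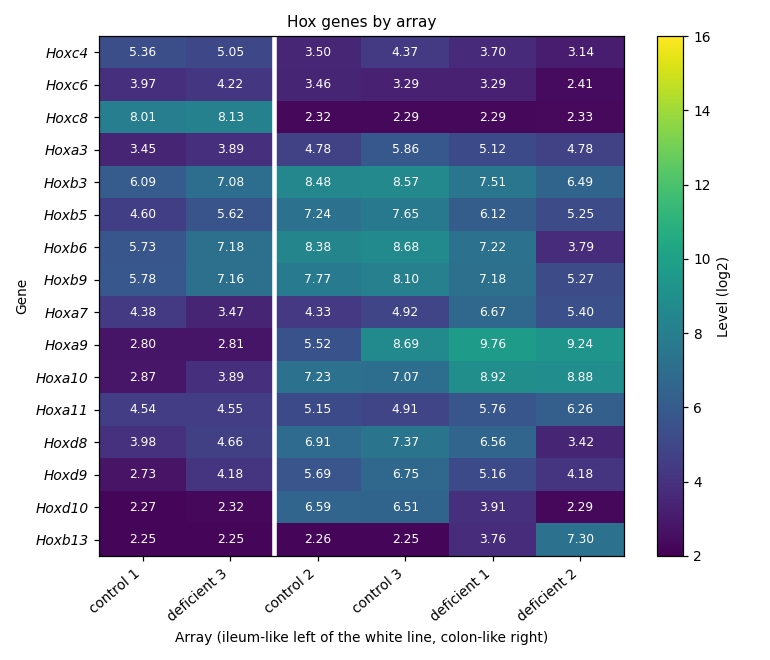
Levels (log2, printed and coloured) of 16 Hox genes on the 6 arrays, with the ileum-like arrays left of the white line. Hoxc8 is at 8.01 and 8.13 on the ileum-like arrays and below 2.4 on the others, Hoxa9 and Hoxa10 run the other way, and Hoxd10 and Hoxb13 divide the colon-like arrays.

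Other regional transcription factors divided as well: of 24, 5 of 24 were higher and 3 of 24 lower. Gata5, a GATA factor of differentiated small intestine epithelium, read 7.79 and 6.88 against 3.29, 2.90, 3.20 and 2.82, and Hnf4g 9.55 and 9.50 against 6.93, 6.43, 6.40 and 5.11. Its paralogue Hnf4a was bright on every array and read 12.11 and 11.88 against 11.71, 11.50, 11.53 and 10.91. The ileum-like values were highest, with a difference of 0.58 ± 0.22, and Hnf4a was not counted as higher. Other probe sets of Hnf4a differed by 1.08, counted as higher, and by 0.95 and 0.50, which were not. Maf and Tbx3 differed by 2.49 ± 0.25 and 2.30 ± 0.28. Foxd2, a forkhead transcription factor, read 2.95 and 3.14 against 8.29, 8.62, 8.15 and 7.06 on its measured probe set and was at the lowest value on a second one. Foxa2 and Foxa3, forkhead factors of the gut endoderm, differed by -1.65 ± 0.24 and -1.40 ± 0.31, Foxa3 by -0.93 without control 1. The intestinal master factors Cdx1 and Cdx2 read 9.20 and 9.14 against 9.17, 9.63, 9.92 and 9.18 and 9.84 and 9.74 against 10.76, 10.35, 9.95 and 9.45, and their sides overlapped.

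**Figure D4:**
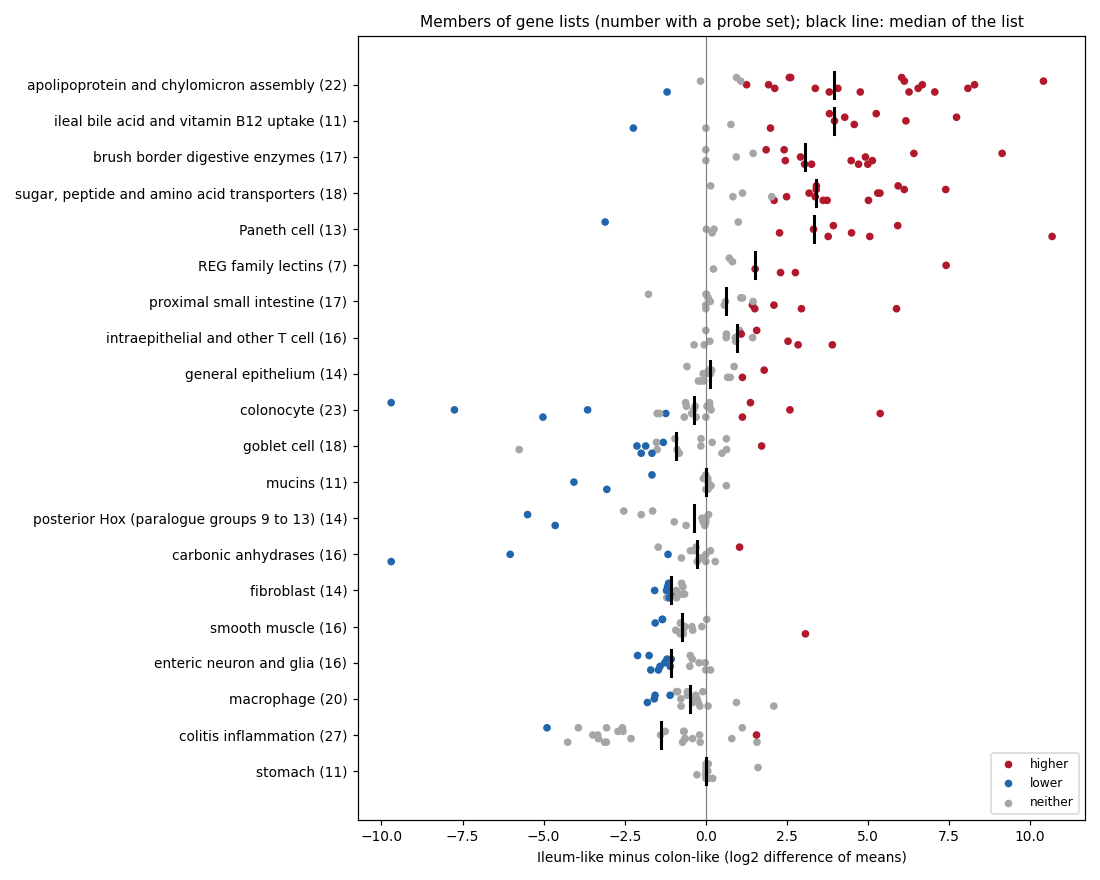
Difference in log2 level between the sides (horizontal axis) for each member of 20 gene lists (rows, with the number of members that have a probe set); red members are higher, blue lower and grey neither, and the black line is the list's median. The medians run from 3.97 for ileal bile acid and vitamin B12 uptake to -1.40 for colitis inflammation.

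Some hormone genes differed between the sides. Insl5, a hormone of colonic L cells, read 2.33 and 2.59 against 5.31, 4.14, 5.50 and 9.48, and Sct (secretin) 9.90 and 9.06 against 8.74, 8.32, 7.30 and 5.17. Without deficient 3 the difference of Insl5 was -2.39 and that of Sct 1.37. Gcg and Pyy, hormones of L cells in both ileum and colon, read 10.96 and 11.59 against 12.67, 12.07, 10.90 and 11.44 and 9.69 and 9.77 against 10.57, 10.24, 9.87 and 10.49. Neither was higher or lower. Of 21 enteroendocrine genes 2 of 21 were higher and 4 of 21 lower, with a median of -0.22. Over all genes 3.18% were higher and 4.72% lower. The tuft cell kinase Dclk1 read 3.66 and 4.22 against 6.37, 5.89, 6.40 and 8.37.

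Several lists of cells of the gut wall held lower genes, in numbers that depended in part on the processing. In whole tissue, fewer cells of a type and less RNA per cell cannot be told apart. Of 16 genes of enteric neurons and glia, 9 of 16 were lower and 0 higher, with a median of -1.08. Stmn2, of neuronal axons, read 6.04 and 6.25 against 7.93, 7.48, 6.93 and 7.88, and Uchl1, a neuronal ubiquitin hydrolase, 4.55 and 2.99 against 5.72, 5.74, 5.51 and 6.53. The difference of Uchl1 was -1.17 without deficient 3, and the list's lower count was 4 without deficient 3 and 5 without deficient 2. Of 16 smooth muscle genes 3 of 16 were lower and 1 of 16 was higher, with a median of -0.73; without deficient 3 the lower count was 8. Cnn1 (calponin) read 10.68 and 11.24 against 12.56, 12.28, 12.33 and 12.91 and Tagln 11.94 and 12.50 against 13.46, 13.54, 13.58 and 13.65, whereas the muscle myosin Myh11 read 11.13 and 11.63 against 12.25, 12.44, 12 and 11.41 and was neither. Hhip, an inhibitor of hedgehog signalling, was the higher member (3.07 ± 0.65). Of 14 fibroblast genes 7 of 14 were lower and 0 higher, with a median of -1.09, and 4 were lower without deficient 2. Lum (lumican, a matrix proteoglycan) read 8.94 and 9.63 against 10.21, 10.25, 10.32 and 11.06 and Fn1 (fibronectin) 8.54 and 8.66 against 9.57, 9.82, 9.90 and 11.43. Of 12 endothelial genes 4 of 12 were lower and 0 higher, with Pecam1 at -1.13 ± 0.16, and the lower count was 2 without deficient 2 or without deficient 3.

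Inflammatory genes varied widely among the colon-like arrays. Of 27 colitis genes 1 of 27 was higher and 1 of 27 lower, although the median was -1.40. Il6 read 2.25 and 2.25 against 2.25, 4.28, 7.87 and 11.63 and Il1b 4.32 and 4.74 against 4.33, 6.83, 8.12 and 11.07, so that control 2 was as low as the ileum-like arrays and deficient 2 was the highest. S100a8, of neutrophils, read 4.31 and 7.03 against 4.55, 8.30, 10.26 and 12.06 and Lcn2, an epithelial antimicrobial protein, 5.80 and 7.08 against 5.52, 7.22, 10.29 and 11.95. Without control 2, 11 of the 27 genes were lower, and without deficient 3, 8 were. Mmp3, a matrix protease, was the lower member at 2.82 and 4.58 against 4.96, 6.56, 10.33 and 12.55. Without deficient 3, which leaves only the control arrays to compare the sides, it differed by -2.94. Nos2, the inducible nitric oxide synthase, was the higher one at 4.55 and 4.25 against 2.99, 2.35, 3.0 and 3.0. The part of inflammation in the differences between the sides was not tested. Of 20 macrophage genes 4 of 20 were lower and 0 higher; Mrc1, a mannose receptor, read 7.18 and 7.75 against 8.60, 9.0, 9.09 and 9.54, and Csf1r 9.88 and 10.43 against 9.93, 10.83, 10.68 and 11.45.

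Most marker genes of pancreas and stomach were below log2 4 on all arrays: 3 of 12 pancreatic and 2 of 11 stomach genes were above it on at least 1 array, and 7 of 13 liver genes were. The pancreas gene Cpa1 was at 2.25 and 2.25 against 2.35, 2.25, 2.25 and 2.25, the stomach gene Gkn1 at 2.44 and 2.69 against 2.52, 2.52, 2.51 and 2.69 and the liver gene Alb (albumin) at 2.31 and 2.31 against 2.31, 2.31, 2.31 and 2.31, and 0 of 11 stomach genes were higher or lower. Of 12 pancreatic genes 1 of 12 was higher (Clps, colipase, 2.27 ± 0.37) and 1 of 12 was lower (Cela1, -2.33 ± 0.31). Of 13 liver genes 3 of 13 were higher, Cps1, G6pc and Apoh. G6pc, of glucose release, read 7.42 and 3.60 against 2.25, 2.27, 2.31 and 2.25, and its difference was 1.32 without control 1 and 5.16 without deficient 3. Adipoq, an adipocyte hormone, read 10.15 and 9.43 against 11.24, 10.16, 8.75 and 8.16, with the sides overlapping.

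The 2 ileum-like arrays differed from each other in the same sense across many of these genes. Among the 269 genes higher by at least 2, 103 were at least 1 unit higher on control 1 than on deficient 3 and 8 were at least 1 unit higher on deficient 3, with a median of 0.68. Among the 205 genes lower by at least 2, 14 were at least 1 unit higher on control 1 and 37 on deficient 3, with a median of -0.26. Deficient 3 thus lay nearer to the colon-like arrays for more genes in both directions. The 2 arrays are from mice of different genotypes, so genotype, mouse and position along the gut cannot be told apart here. Some genes of the upper intestine, chosen for this pattern after their values were seen, were clearly above their colon-like values on control 1 alone. Gip, a hormone of duodenal K cells, read 8.16 there and 2.43 on deficient 3, and Slc2a2, the basolateral glucose carrier, 6.30 and 2.25. Slc2a5, the fructose carrier, read 5.20 and 2.94, Lct 5.71 and 2.30, and Rdh7, a retinol dehydrogenase, 9.09 and 2.83. On deficient 3 these 5 genes were at or near their colon-like values, whereas Rbp2, Sct and Heph of the proximal list were above every colon-like value on both arrays. Gip and Rdh7, which were counted as higher, differed by 0.09 and 0.58 without control 1 and by 5.81 and 6.84 without deficient 3.

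Some genes bright on the colon-like side were lower on control 1 than on deficient 3, which again differ in genotype and mouse. Those given here were chosen after their values were seen. Retnlb, a bactericidal goblet cell protein, read 2.32 on control 1 and 11.64 on deficient 3, and 11.45, 12.73, 14.10 and 12.66 on the colon-like arrays. Plet1, a surface protein of colonic progenitors, read 3.17 and 9.76 against 12.02, 12.52, 12.88 and 12.85; its difference was -3.10 without control 1 and -9.10 without deficient 3. Another of its probe sets differed by -5.97 and one with means below log2 4 by -0.10. Aqp4, a basolateral aquaporin, read 6.64 and 10.61 against 9.27, 10.18, 12.29 and 12.79. Saa1, an acute-phase protein, read 9.0 and 14.15 against 12.14, 12.73, 13.70 and 13.31. For Retnlb, Aqp4, Saa1 and Slc40a1, deficient 3 lay within or above the colon-like range and control 1 below it. None of these 4 was counted as lower. Other genes did not share this order: Cyp2c55, Cd177 and Cldn8 were higher on control 1 than on deficient 3, and Hoxa9, Car2, Foxd2 and Aqp8 were within 1 unit of each other on the 2 arrays.

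The 4 colon-like arrays differed in order too, in genes chosen after their values were seen, with control 2 and control 3 at one end and deficient 2 at the other. Osr2, a transcription factor, read 8.10, 7.87, 4.91 and 2.25 on these arrays and 8.15 and 6.21 on the ileum-like ones. Nts (neurotensin), a hormone of ileal endocrine cells, read 11.58, 10.87, 9.26 and 3.97, and B3gnt6, which builds core 3 mucin glycans, 8.12, 8.21, 6.61 and 3.64. Together with Slc51a and Hoxd10 these genes decrease from control 2 and control 3 through deficient 1 to deficient 2. Atp12a, a proton pump of the distal colon, read 2.56, 2.58, 3.32 and 7.51, and with Insl5 and Hoxb13 was highest on deficient 2. Because 2 arrays of each genotype make up this side, the order runs with genotype and the 2 cannot be told apart. B3gnt6 was counted as lower on the ileum-like side at -3.65 ± 1.45, with -5.65 without deficient 3 and -1.64 without control 1.

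**Figure D5:**
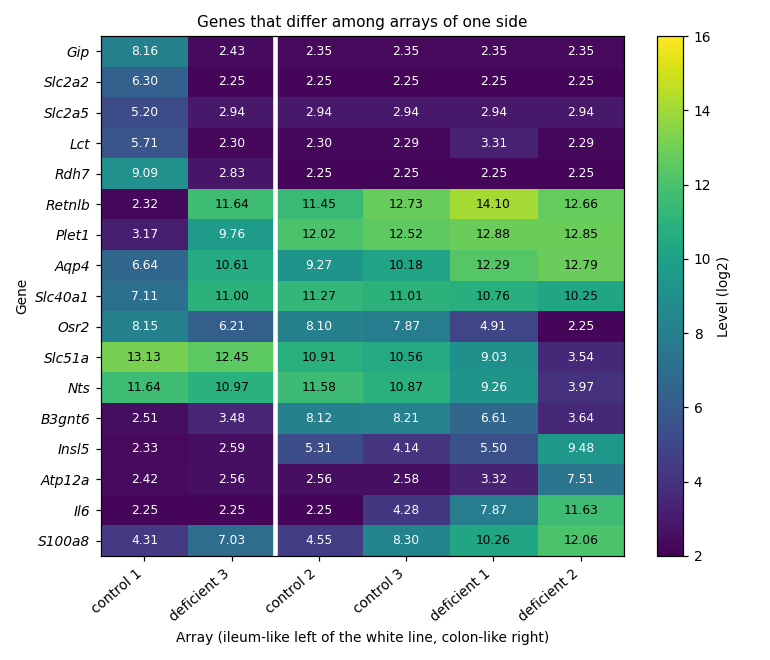
Levels (log2, printed and coloured) of 17 genes that differ among arrays of the same side, with the ileum-like arrays left of the white line. Gip, Slc2a2 and Rdh7 stand out on control 1, Retnlb is near the lowest value there alone, and Osr2, Slc51a, Nts and B3gnt6 are lowest on deficient 2 among the colon-like arrays.

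Genes that sit next to each other did not always share a direction. In the order of the reference annotation, 59 of 576 placed higher genes (10.2%) and 130 of 857 placed lower genes (15.2%) had an adjacent gene of the same call. Over all genes 3.18% were higher and 4.72% lower, and a gene can have a neighbour on either side. The share to expect from these rates was not computed, so no conclusion is drawn from the 2 percentages. Apoa1, Apoc3 and Apoa4 follow each other on chromosome 9 and were all higher. The carbonic anhydrase genes Car13, Car1, Car3 and Car2 follow each other on chromosome 3, with differences of 1.04, -9.70, 0.14 and -6.03. Car3, an adipose and muscle enzyme, read 13.10 and 13 against 14.21, 13.57, 12.23 and 11.62. Car13 was 0.49 without control 1 and 1.59 without deficient 3, and was not counted as higher without control 3 (0.84). Its other probe sets differed by 1.32 and 1.35 and were higher. On chromosome 13, Akr1c18, Akr1c13, Akr1c19 and Akr1c12, which encode aldo-keto reductases of steroid and prostaglandin metabolism and are close copies of each other, were all lower. On chromosome 11 the carnitine and organic cation carriers Slc22a5, Slc22a21 and Slc22a4 were all higher, with differences of 1.34, 1.05 and 2.04. Without control 1 the differences of Slc22a21 and Slc22a4 were 0.88 and 0.64, that of Slc22a4 was 3.45 without deficient 3, and Slc22a21 was not counted as higher without control 3 (1.0) or without deficient 2 (1.0).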

How the data were processed

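Total RNA from the bowel of 6 mice was hybridised to Affymetrix mouse arrays, 1 array per mouse. The deposited values are log2 summaries per probe set, and the submitters' processing notes name GCRMA as the authors' method. For its version and settings, nothing is given in the sources used here. Values run from 2.25 to 16.2, on average 35.5% of an array's probe sets lie within 0.1 of the lowest value, and each array had 41.4% to 42.7% of probe sets above log2 4. The number of arrays limits the precision.

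Of 45101 probe sets, 34958 named 1 gene, 932 several and 9211 none listed; 34754 had an Entrez identifier in RefSeq (GRCm38.p6), which changed no symbol. Each of the 18194 genes was represented by its probe set with the highest mean over the 6 arrays, with no filter. Side and genotype entered 1 linear model per gene (limma 3.58.1, R 4.3.3), with standard errors moderated across genes. Only differences and standard errors were taken and no p-value, since values of these arrays chose the sides. The fit was tested on simulated data and returned the differences put in.

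The Apoa1 rule, the 41 gene lists (677 genes, 615 with a probe set) and the alternatives were chosen with earlier results of these data known. Named genes are the 4 markers, the 15 largest differences in each direction without predicted transcripts, and in each list up to 4 counted members with the largest difference and 2 others with the highest level; 87 further genes were chosen after their values were seen. Other probe sets of the counted named genes, 59 above log2 4 in 40 genes, had the same sign in 57.

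Alternatives were filters at log2 4 and 6, quantile normalization, median centring, averaging a gene's probe sets, and probe sets without the suffixes _s_at, _x_at or _a_at. Others were a floor at log2 4, a difference of 2, no genotype covariate, a replicate block and leaving out each array. Replicates are separate mice per the labels.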

Additional observations from a re-analysis of the deposited data

Results flagged for a closer look

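Among the 184 genes with printed values, 25 had 1 colon-like array far from the other 3, by Dixon's gap test over 4 arrays, which chance alone passes in about 1 in 20 groups. That rate does not hold for this set, because some of its genes were chosen for differing among these arrays. The 4 arrays also hold both genotypes. The highest value stood apart on control 2 for Alb (2.31), Cpa1 (2.35), Creb3l3 (5.69), Pdx1 (2.26), Rbp2 (3.87) and Xist (12.11). The lowest value stood apart on control 2 for Cyp2d10 (6.05). The highest value stood apart on control 3 for Fgf15 (2.26) and Tmprss15 (2.25). The lowest value stood apart on control 3 for Nos2 (2.35). The highest value stood apart on deficient 1 for Apoa4 (6.73) and Lct (3.31). The highest value stood apart on deficient 2 for Atp12a (7.51), Clca1 (14.16), Gkn1 (2.69), Lum (11.06) and Zg16 (15.84). The lowest value stood apart on deficient 2 for Cd79a (2.27), Fabp6 (5.72), Gip (2.35), Hoxc6 (2.41), Igha (10.84), Reg3b (12.76), Slc2a5 (2.94) and Slc6a19 (2.29). For Alb, Cpa1, Pdx1, Fgf15, Tmprss15, Gkn1, Cd79a, Gip and Slc2a5 all 4 values are below log2 3, and the gap is a small fraction of a log2 unit.

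For 11 genes the ileum-like array of 1 genotype lay beyond both its colon-like arrays in one direction and that of the other genotype beyond its own in the opposite direction; the difference between the genotypes was not tested. The widest apart among them were Slc40a1 and Saa1, with differences of -4.04 and -3.43 in the control arrays and 0.50 and 0.64 in the deficient arrays. Lower in the control and higher in the deficient arrays, in that order, were Adipoq (-0.55 and 0.98), Car3 (-0.79 and 1.07), Car4 (-1.07 and 0.47), Cd36 (-0.74 and 0.42), Gcg (-1.41 and 0.42) and Gkn1 (-0.0743 and 0.0876). The reverse held for Clca1 (0.45 and -0.75), Slc26a3 (0.49 and -1.24) and Zg16 (0.12 and -0.43).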

How the results depend on the processing

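The counts of 578 higher and 859 lower genes stayed within 1.5 times under most settings. The exceptions were 880 higher genes without deficient replicate 3, 562 lower genes with averaged probe sets, and 269 higher and 205 lower genes where a difference of 2 was required. Leaving out each array in turn gave 590 to 880 higher and 817 to 1072 lower genes. With an array left out the rule has fewer values to separate, which can raise a count by itself. Median centring gave 691 and 723, so that higher genes made up 48.9% of those counted, against 40.2%. Apoa1 thresholds of log2 10 and 14, and Fabp6 above log2 12, chose the same 2 arrays.

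The replicate numbers are shared by label alone, and no array had its best match, by the correlation across genes of deviations from the genotype means, with the array of its own number in the other genotype (-0.52, 0.34 and -0.58 for numbers 1, 2 and 3). With the replicate block 544 genes were higher and 741 lower, and fewer list members were lower: 2 of 14 fibroblast, 5 of 16 enteric neuron and glia, 2 of 21 enteroendocrine and 1 of 12 endothelial genes. For fibroblast, enteric neuron and glia, and endothelial genes in that order, the lower counts were 4, 7 and 2 with median centring. They were 6, 7 and 2 with quantile normalization and 4, 6 and 3 with averaged probe sets.

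Among the counted named genes a sign turned for Hoxa3, at 0.0041 without probe sets that end in _s_at, _x_at or _a_at, and for Hoxa5, at -0.78 with averaged probe sets and -2.88 without those suffixes. Of 170 counted named genes, 13 were no longer counted with averaged probe sets, 13 with the block, 12 with the floor at log2 4, 7 with median centring and 3 with quantile normalization. Without the suffixes, 10 of the 151 that could be measured were not counted, among them Hoxa10, Plet1, Ccr9, Clps, Muc4 and Lyz1. The brightest probe sets of Hoxa10, Plet1 and Clps end in _a_at. Of 614 medians of gene lists under these settings, 576 stayed within 1 SD. The sign turned in 1 list with a median beyond 0.5, plasma cell and IgA, without control replicate 1.

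The ileum-like side rests on 2 arrays, and values near the lowest level understate differences.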
